A study of Gallus gallus with 9 samples.

Results

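The 48 genes described here build and control the mitotic apparatus: the kinetochore, the spindle, the spindle checkpoint, the chromosomal passenger complex, the condensed chromosome and the cleavage furrow. They were taken from 13009 measured genes by symbol, as every gene whose platform symbol begins with CENP followed by a letter (19 genes) and those of 34 named genes that the platform annotation lists under their own symbol (29 genes). The 5 named genes without an entry of their own were SPC24, AURKA, CCNB2, CDCA8 and NCAPH, and no value is given for them. CCNB2 is held by a RefSeq gene table (assembly GRCg7b, used for names only) as a synonym of CCNB1, which is given below outside the 48. Where a gene had several probe sets, the one brightest on average across the arrays was used.

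The 9 arrays were of gonad cells of chicken embryos of the WL line at 6.5 days, separated by magnetic-activated cell sorting (MACS). There were 3 PGC arrays, the usual short form of primordial germ cells, and 6 GSC arrays, a name the labels do not spell out. Both fractions came from the same organ and age, and the stated aim was to compare them. Neither the sorting antigen, the sex of the embryos nor any pooling of embryos is given in the sources used here. The p-values therefore cover only the spread between arrays, which may be technical, and the number of arrays limits the precision.

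Germ cell and somatic markers separated the fractions. DDX4, the germ cell RNA helicase, measured 9.40, 9.51 and 8.36 (log2) on PGC replicates 1, 2 and 3, against 4.31 to 4.82 on the 6 GSC arrays. GATA4, which marks somatic cells of the gonad, measured 2.60, 3.57 and 5.44 in PGC, against 6.25 to 6.57 in GSC. Of the measured markers, 12 of 13 for germ cells and 6 of 8 for mesonephric tubule rose in PGC by the limma test described below, while 14 of 18 for gonadal somatic cells, 9 of 11 for endothelium, 4 of 8 for leukocytes and 3 of 8 for erythroid cells fell. The other 2 tubule markers, UMOD (-1.32) and PAX2 (-0.62), fell, and 1 leukocyte marker, CYBB (0.65), rose. Over 18 somatic markers the mean log2 level was 5.45, 5.93 and 6.75 on PGC replicates 1, 2 and 3, against 7.36 to 7.64 in GSC, and over 8 markers of the mesonephric tubule it was 6.29 to 6.79 in PGC, against 4.07 to 4.63 in GSC. On the mean of 4 bacterial control probe sets of the kind spiked into RNA as labelling controls, PGC arrays lay at 7.44 or higher, against 4.96 to 6.00 in GSC, and the 5′ probe set of actin lay further below its 3′ probe set in PGC (-0.92, -0.88 and -0.51) than in GSC (-0.35 to -0.16). For GAPDH this difference overlapped between the fractions (0.01 to 0.13 in PGC and -0.05 to 0.17 in GSC). The part of these differences in the results below was not tested.

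In mitosis the centromere assembles a kinetochore, whose inner plate (the constitutive centromere-associated network, or CCAN, made of CENP proteins) sits on the centromeric chromatin and whose outer plate, with the NDC80 complex, grips spindle microtubules. The spindle checkpoint holds back the anaphase-promoting complex until every kinetochore is attached, and the passenger complex corrects wrong attachments and then moves to the central spindle for cytokinesis. Primordial germ cells of the embryonic gonad divide by mitosis, as do the somatic cells around them, before the germ cells enter meiosis or become quiescent.

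Most of the mitotic genes were not called different between the fractions, and those that were called went in both directions. By limma, at a Benjamini-Hochberg adjusted p under 0.05 over all 13009 genes, 5 of the 48 rose in PGC, 10 fell and 33 did not pass. That is 31.3% of the members, against 42.0% of all genes. The 5 that rose are 10.4% of the members (22.5% of all genes rose), and the 10 that fell are 20.8% (19.5% of all genes fell). Only CENPV and CENPO were called and differed at least 2-fold, which is 4.17% of the members, against 14.1% of all genes. Values of the fractions were fully separate in 12 of the 48 members (25.0%), against 36.4% of all genes. The median log2 difference (PGC minus GSC) was -0.13 over the members and -0.02 over all genes, and the median size of the difference regardless of sign was 0.23 for members and 0.30 for all genes. In bulk RNA, fewer cells of a type and less RNA per cell cannot be told apart.

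**Figure D1:**
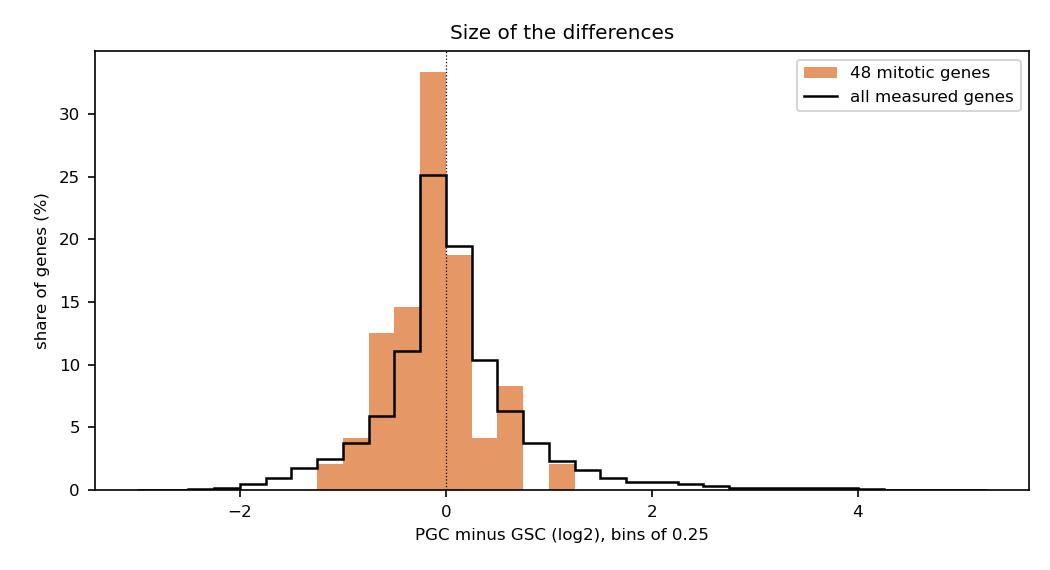
Share of genes (%) in bins of the log2 difference PGC minus GSC, for the 48 mitotic genes (filled) and all 13009 genes (line). The members lie between -1.08 and 1.12, while the line runs on to both sides.

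The intervals of the uncalled members were of unlike width. In 30 of the 33 the 95% interval of the log2 difference lay within 1 on either side, that is within 2-fold, and in 16 of the 33 within 0.5, that is within 1.41-fold. The share of all uncalled genes with such intervals is not given here. The difference itself was within 0.5 on either side in 70.8% of the 48 members, against 66.0% of all genes. The members were well measured: 46 of the 48 lay above 2.88 on every array, the 95th percentile of 57 reporter probe sets that match no chicken gene. The exceptions were SPC25, an NDC80 complex subunit, which lay below it on 3 of 3 PGC and 4 of 6 GSC arrays, and CENPF, below it on 2 PGC arrays. The replicates spread more in PGC than in GSC for 37 of the 48 members (66.9% of all genes), with a median SD of 0.24 in PGC and 0.15 in GSC, and the standard errors pool both. Since PGC has fewer arrays, these intervals can be too short where PGC spread more, as for KIF11 (SD 0.80 in PGC and 0.22 in GSC).

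**Figure D2:**
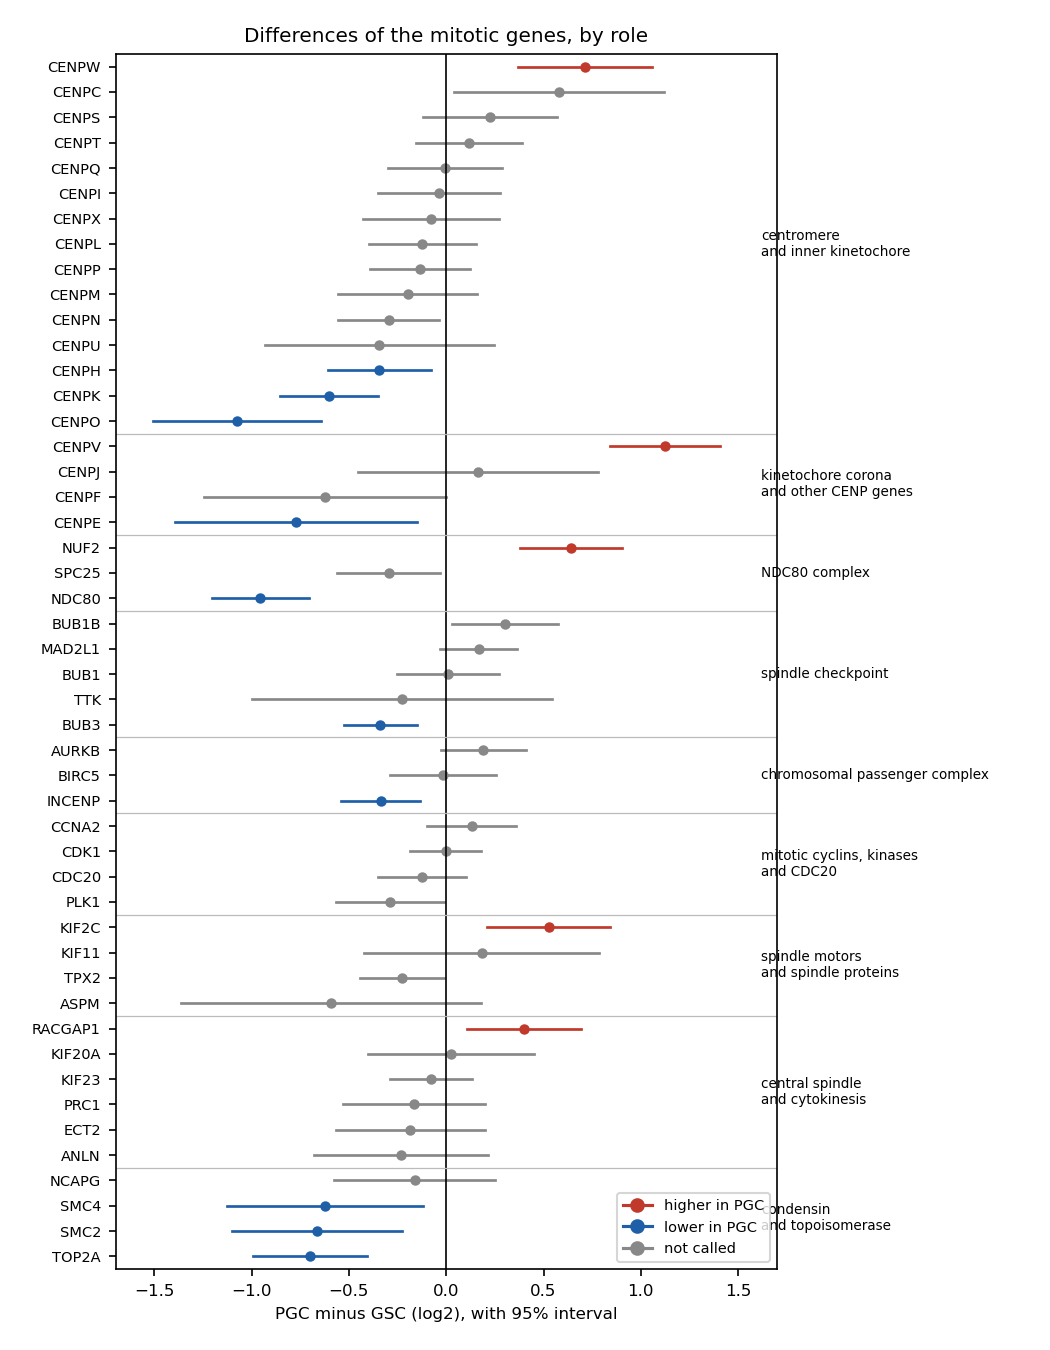
Log2 difference PGC minus GSC (points, limma) with its 95% interval (lines) for each of the 48 genes, grouped by role; colours mark genes called higher, lower or not called at an adjusted p under 0.05. Called genes of both directions stand within the inner kinetochore, the NDC80 complex and the group of CENPE and CENPV.

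The NDC80 complex, the microtubule clamp of the outer kinetochore, held the clearest opposite pair. NDC80 and NUF2 are its partner subunits at the microtubule end. NUF2 measured 8.58, 8.40 and 8.01 (log2) on PGC replicates 1, 2 and 3, against 7.62, 7.74, 7.63, 7.70, 7.74 and 7.68 on GSC replicates 1 to 6. NDC80 measured 5.60, 5.80 and 5.66 in PGC, against 6.43, 6.52, 6.80, 6.73, 6.57 and 6.81 in GSC. All PGC arrays lay above all GSC arrays for NUF2 and below them for NDC80. NUF2 was 1.56-fold higher in PGC (log2 difference 0.64 ± 0.12 SE, limma adjusted p = 0.00133), and NDC80 was 1.94-fold lower (-0.96 ± 0.11 SE, adjusted p = 6.54e-05). The next brightest probe set of each gene was called in the same direction, at 0.78 for NUF2 and -1.36 for NDC80. Both genes passed in all 20 alternative analyses. SPC25, at the kinetochore end of the complex, had a difference of -0.30 and did not pass (adjusted p = 0.0690).

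A log2 ratio taken within each array does not change when the whole array is shifted by a constant log2 amount. It can still change with a normalization that acts differently on bright and dim genes. The NUF2 to NDC80 log2 ratio was 2.98, 2.60 and 2.35 on PGC replicates 1, 2 and 3, against 0.84 to 1.22 in GSC, a difference of 1.60 on the log2 scale. Since each of the genes already separated the fractions, the order of their ratio was fixed, and it was given no test. Another 12 ratios between partners of 1 complex, all chosen after the data had been seen, were compared by a two-sided exact permutation test on all 84 assignments of the arrays, whose smallest p is 0.0119. Of the 12, 3 had an adjusted p under 0.05 over the 12, namely CENPO to CENPP, BUB1B to BUB3 and AURKB to INCENP, and in each of these CENPO, BUB3 or INCENP separated the fractions by itself. These 3 share the smallest p of 0.0119, and their adjusted p depends on that tie. For CENPW to CENPT, CENPO to CENPQ, BUB1 to BUB3 and KIF23 to RACGAP1 the adjusted p was 0.0612 (exact permutation test). In each of these too, CENPW, CENPO, BUB3 or RACGAP1 separated the fractions by itself. For SMC2 to SMC4, the core pair of condensin, the ratio differed by -0.04 (exact permutation test, adjusted p = 0.571).

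**Figure D3:**
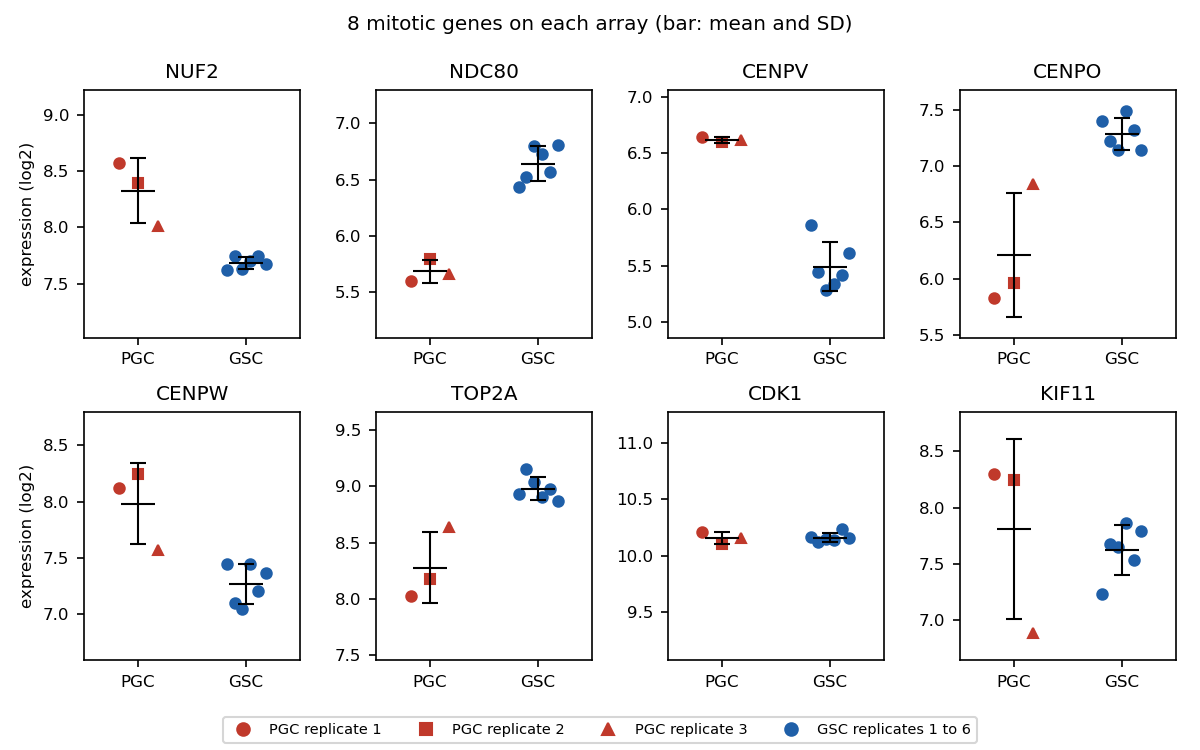
Log2 expression of 8 mitotic genes on each array; symbols are arrays (PGC replicates by shape, GSC as circles), bars are the mean and SD, and every panel spans the same log2 range on its own level. NUF2, CENPV and CENPW stand higher in PGC, NDC80, CENPO and TOP2A lower, CDK1 is level, and PGC replicate 3 stands apart for KIF11.

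Of the 15 genes listed here under centromere and inner kinetochore, 1 rose, 3 fell and 11 did not pass, with a median log2 difference of -0.12. CENPO belongs to the CENP-O complex of the CCAN, which in human cells is linked to recruitment of the kinase PLK1. CENPO measured 5.83, 5.96 and 6.84 on PGC replicates 1, 2 and 3, against 7.40, 7.22, 7.14, 7.49, 7.32 and 7.14 in GSC. Every PGC array lay below every GSC array, with PGC replicate 3 nearest to them. The gene was 2.11-fold lower in PGC (-1.08 ± 0.20 SE, limma adjusted p = 0.00111). A second CENPO probe set gave -1.27, and leaving out single arrays gave -1.39 (without PGC replicate 3) to -0.89 (without PGC replicate 1).

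The other subunits of the CENP-O complex measured under a CENP symbol were nearer to equal. A further subunit, CENP-R, is listed under the symbol ITGB3BP among the other kinetochore genes described below, and was named after its values were seen. ITGB3BP went the opposite way to CENPO and rose by 0.37 (limma adjusted p = 0.0344). It measured 7.07, 7.17 and 6.71 on PGC replicates 1, 2 and 3, against 6.36 to 6.75 in GSC, with PGC replicate 3 inside the GSC range. CENPP had a log2 difference of -0.13, with a 95% interval of -0.39 to 0.12, and CENPQ of -0.01 (-0.30 to 0.29). CENPU was dim and scattered in PGC (4.04, 4.73 and 3.19, against 4.10 to 4.69 in GSC). The CENPO to CENPP log2 ratio was lower in PGC by 0.94, and its values of -1.44, -1.47 and -0.42 on PGC replicates 1, 2 and 3 all lay below the GSC range of -0.36 to 0.06 (exact permutation test, p = 0.0119, adjusted p = 0.0476 over the 12 ratios). CENPO alone separated the fractions and the pair was chosen after the data had been seen, so this p is not independent support. The CENPO to CENPU log2 ratio, at 1.78, 1.23 and 3.65 on PGC replicates 1, 2 and 3, against 2.63 to 3.30 in GSC, lay above every GSC array on PGC replicate 3 and did not pass (exact permutation test, adjusted p = 0.195). PGC replicate 3, where the somatic markers were highest among the PGC arrays, had the CENPO to CENPP ratio closest to GSC, and the part of that array's content in it was not tested.

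CENPK and CENPH belong to the CCAN subcomplex that also holds CENPI and CENPM. CENPK measured 7.05, 7.43 and 7.39 in PGC, against 7.77 to 8.06 in GSC, without overlap, and fell by 0.60 ± 0.11 (SE, limma adjusted p = 0.00144). CENPH measured 8.03, 8.02 and 8.44 in PGC, against 8.35 to 8.67 in GSC, with PGC replicate 3 inside the GSC range. It fell by 0.34 (adjusted p = 0.0385), a call lost without PGC replicate 1 or 2 or without any GSC array but replicate 3. Their partners CENPI (-0.04) and CENPM (-0.20) did not pass.

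CENPW, a histone-fold protein that pairs with CENPT at the centromere, was the only gene that rose among those listed here under centromere and inner kinetochore. It measured 8.12, 8.25 and 7.57 in PGC, against 7.45, 7.10, 7.05, 7.45, 7.21 and 7.36 in GSC, and was 1.64-fold higher (0.71 ± 0.16 SE, adjusted p = 0.00362). There was no overlap, although PGC replicate 3 came close to the GSC arrays. CENPT had a difference of 0.12 and the other histone-fold pair, CENPS and CENPX, of 0.23 and -0.08, and none of these passed. CENPC, which ties centromeric chromatin to the outer kinetochore, split the PGC arrays, with 6.98 and 6.95 on replicates 1 and 2 and 5.73 on replicate 3, against 5.84 to 6.36 in GSC. Its difference of 0.58 did not pass (limma adjusted p = 0.0809). It was 0.99 without PGC replicate 3 (adjusted p = 1.21e-04) and 0.37 without PGC replicate 1 (adjusted p = 0.332). CENPN, which binds the centromeric nucleosome, and its partner CENPL had differences of -0.30 and -0.12 and did not pass.

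Of the remaining CENP genes, CENPV showed the largest rise among the 48. In human cells its protein sits at kinetochores and later on the central spindle. It measured 6.64, 6.59 and 6.61 on PGC replicates 1, 2 and 3, against 5.86, 5.44, 5.28, 5.34, 5.41 and 5.61 in GSC. The 3 PGC arrays lay within 0.05 of each other and above every GSC array. CENPV was 2.18-fold higher in PGC (1.12 ± 0.13 SE, limma adjusted p = 5.41e-05) and was called in all 20 alternative analyses.

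CENPE, the kinesin of the outer kinetochore corona, measured 5.61, 4.36 and 4.01 in PGC, against 5.29 to 5.81 in GSC. PGC replicate 1 lay within the GSC range and the other PGC arrays below it. Its fall of 0.77 ± 0.28 (SE) had an adjusted p of 0.0471 by limma, was lost on leaving out any single array but PGC replicate 1, and was -1.25 without that array and -0.45 without PGC replicate 3. Its dimmer probe set had a difference of -0.28 and was not called, nor was the mean of its probe sets (-0.52). CENPF, a large corona protein, had the same order of PGC arrays (3.50, 2.21 and 2.13, against 2.99 to 3.76 in GSC) and did not pass (-0.62, adjusted p = 0.0996). CENPJ, a centriole protein despite its name, had a difference of 0.16 and did not pass.

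Of the 5 spindle checkpoint genes, 1 fell and 4 did not pass. BUB3, which brings BUB1 and BUB1B to the kinetochore, measured 9.39, 9.32 and 9.45 in PGC, against 9.67 to 9.81 in GSC, without overlap. It fell by 0.34 ± 0.09 (SE, limma adjusted p = 0.00767), which is 1.26-fold. BUB1, a checkpoint kinase, had a difference of 0.01, with a 95% interval of -0.25 to 0.27. MAD2L1, which inhibits CDC20, had one of 0.17 (-0.03 to 0.37). Its PGC arrays all lay above its GSC arrays, the closest at 9.454 and 9.447.

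BUB1B, the BUBR1 protein of the checkpoint, measured 8.60, 8.59 and 8.10 in PGC, against 7.97 to 8.19 in GSC. Its difference was 0.30 (limma adjusted p = 0.0743), and it was called at 0.47 without PGC replicate 3 but not without PGC replicate 1 (0.21). The BUB1B to BUB3 log2 ratio was higher in PGC by 0.64, with -0.79, -0.72 and -1.36 in PGC, against -1.77 to -1.48 in GSC (exact permutation test, p = 0.0119, adjusted p = 0.0476). BUB3 alone separated the fractions and the pair was chosen after the data had been seen, so this p is not independent support. The probe sets of BUB1B disagreed, since a dimmer one (3.18 to 3.52 in PGC, against 3.60 to 4.18 in GSC) fell by 0.61 (limma over all probe sets, adjusted p = 0.0106). TTK, the kinase MPS1 that starts the checkpoint, measured 6.01, 6.29 and 4.46 in PGC, against 5.24 to 6.31 in GSC, and did not pass (-0.23).

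Among the 3 measured genes of the chromosomal passenger complex, INCENP, its scaffold, fell and the other 2 did not pass. INCENP measured 7.72, 7.89 and 7.62 in PGC, against 8.03 to 8.16 in GSC, and was 1.26-fold lower (-0.34 ± 0.09 SE, limma adjusted p = 0.0121). The kinase AURKB measured 8.25, 8.26 and 8.08 in PGC, against 7.85 to 8.16 in GSC, and did not pass (0.19). The AURKB to INCENP log2 ratio was 0.53, 0.37 and 0.46 in PGC, against -0.18 to 0.00 in GSC, a difference of 0.53 (exact permutation test, p = 0.0119, adjusted p = 0.0476). INCENP alone separated the fractions and the pair was chosen after the data had been seen, so this p is not independent support. BIRC5, or survivin, differed by -0.02, with a 95% interval of -0.29 to 0.26.

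None of the 4 measured mitotic cyclins, kinases and activators passed. CDK1, the kinase that drives entry into mitosis, was the brightest of the 48 genes and measured 10.2, 10.1 and 10.2 in PGC, against 10.1 to 10.2 in GSC. Its log2 difference was -0.00 with a 95% interval of -0.19 to 0.18. CCNA2, cyclin A2, differed by 0.13 (-0.10 to 0.36) and CDC20, the activator of the anaphase-promoting complex, by -0.12 (-0.35 to 0.10). PLK1, the polo kinase, differed by -0.29 and did not pass (adjusted p = 0.0891). Outside the 48, CCNB1, the cyclin B partner of CDK1, had a difference of -0.17 (-0.40 to 0.07) and did not pass either, and CCNB3, another cyclin B, had one of -0.34 (adjusted p = 0.0774). Without PGC replicate 3, PLK1 (-0.40), CCNB1 (-0.28) and CCNB3 (-0.50) were called lower. Without PGC replicate 1, PLK1 (-0.31), CCNB1 (-0.15) and CCNB3 (-0.29) were not called.

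Of the 4 spindle motors and spindle proteins, 1 rose and 3 did not pass. KIF2C, the microtubule-depolymerising kinesin MCAK, measured 7.42, 7.41 and 6.74 in PGC, against 6.61 to 6.74 in GSC, so that PGC replicate 3 met the top of the GSC range. It rose by 0.53 ± 0.14 (SE, limma adjusted p = 0.0123), 2 of its 3 other probe sets were called higher as well, and the call was lost without PGC replicate 1 or 2. TPX2, which activates the spindle kinase Aurora A, had a difference of -0.23 (adjusted p = 0.0829).

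KIF11, the kinesin Eg5 that pushes spindle poles apart, measured 8.30, 8.25 and 6.89 on PGC replicates 1, 2 and 3, against 7.24, 7.68, 7.65, 7.87, 7.54 and 7.79 in GSC. PGC replicates 1 and 2 lay above all GSC arrays and PGC replicate 3 below all of them. The difference was 0.18 over all arrays and did not pass (limma adjusted p = 0.638). It was 0.64 without PGC replicate 3 (adjusted p = 0.00429) and -0.06 without PGC replicate 1 (adjusted p = 0.904), so it depended on the PGC array left out. The second KIF11 probe set placed the PGC arrays alike, at 6.87, 7.11 and 5.47, against 5.94 to 6.82 in GSC. ASPM, a spindle pole protein, measured 6.44, 6.05 and 4.50 in PGC, against 5.73 to 6.65 in GSC, and did not pass (-0.59).

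Of 6 genes of the central spindle and cytokinesis, 1 rose and 5 did not pass. RACGAP1, which with the kinesin KIF23 forms the centralspindlin complex, measured 7.78, 7.40 and 7.44 in PGC, against 6.93 to 7.36 in GSC, and rose by 0.40 ± 0.13 (SE, limma adjusted p = 0.0311). The call was lost without PGC replicate 1 or any of GSC replicates 3 to 6, and on the mean of its probe sets (0.14), with the second probe set at 0.21 and not called. KIF23 itself differed by -0.08 (-0.29 to 0.13), although its dimmer probe set fell by 0.37 (limma over all probe sets, adjusted p = 0.0193). PRC1, which bundles midzone microtubules, ECT2, the activator of RhoA at the furrow, and the furrow scaffold ANLN had differences of -0.17, -0.18 and -0.23. A second ANLN probe set, slightly dimmer, fell by 0.68 (adjusted p = 0.0178). KIF20A, a midzone kinesin, differed by 0.03 on the brightest probe set, and its dim second probe set (3.66, 3.32 and 2.44 in PGC, against 1.77 to 2.05 in GSC) was called higher, with all GSC arrays below the reporter level of 2.88.

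The 4 genes grouped here under condensin, which compacts mitotic chromosomes, and topoisomerase II alpha, which untangles them, all showed differences below 0. Of these 4 genes, 3 fell. Condensin genes of a list described below lay above 0, with NCAPD2 at 0.03, NCAPD3 at 0.17 and NCAPH2 at 0.57. NCAPH2 was called higher, and NCAPD2 and NCAPD3, which did not pass, were named after their values were seen. TOP2A measured 8.03, 8.17 and 8.63 in PGC, against 8.93, 9.16, 9.04, 8.90, 8.98 and 8.87 in GSC, without overlap, and was 1.63-fold lower (-0.70 ± 0.13 SE, limma adjusted p = 0.00148), with a second probe set at -0.64. SMC2 and SMC4 form the ATPase core of condensin. SMC2 measured 8.21, 8.19 and 7.62 in PGC, against 8.13 to 8.96 in GSC, and fell by 0.66 ± 0.20 (SE, adjusted p = 0.0194). SMC4 measured 7.88, 7.63 and 6.86 in PGC, against 7.55 to 8.36 in GSC, and fell by 0.62 ± 0.23 (SE, adjusted p = 0.0481).

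For SMC2 and SMC4 PGC replicate 3 was the lowest of the 9 arrays and PGC replicates 1 and 2 lay within the GSC range. Without PGC replicate 3 both calls were lost (-0.47 for SMC2 and -0.32 for SMC4), and the SMC4 call was also lost without PGC replicate 2 or any of GSC replicates 2 to 6. NCAPG, a subunit of the same complex, had a difference of -0.16 and did not pass.

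The array of PGC replicate 3 thus decided several values, and not always by standing between the fractions. It was the lowest of the 3 PGC arrays in 26 of the 48 members, and by more than 0.5 (log2) in 13 of them, against 37.1% and 10.2% of all genes. It lay furthest below the mean of the other PGC arrays for ASPM (-1.74), TTK (-1.68), KIF11 (-1.38), CENPC (-1.23) and CENPU (-1.19), and furthest above it for CENPO (0.95), PRC1 (0.72) and TOP2A (0.53). For these 5 low genes it was lower than every GSC array as well. Without PGC replicate 3, 9 members rose and 9 fell, which is 18.8% in each direction, against 25.5% and 22.9% of all genes in the same fit. The 5 that rose over all arrays stayed among them, and BUB1B, CENPC, KIF11 and KIF20A joined, while CENPE, SMC2 and SMC4 were no longer called lower and PLK1 and PRC1 were.

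**Figure D4:**
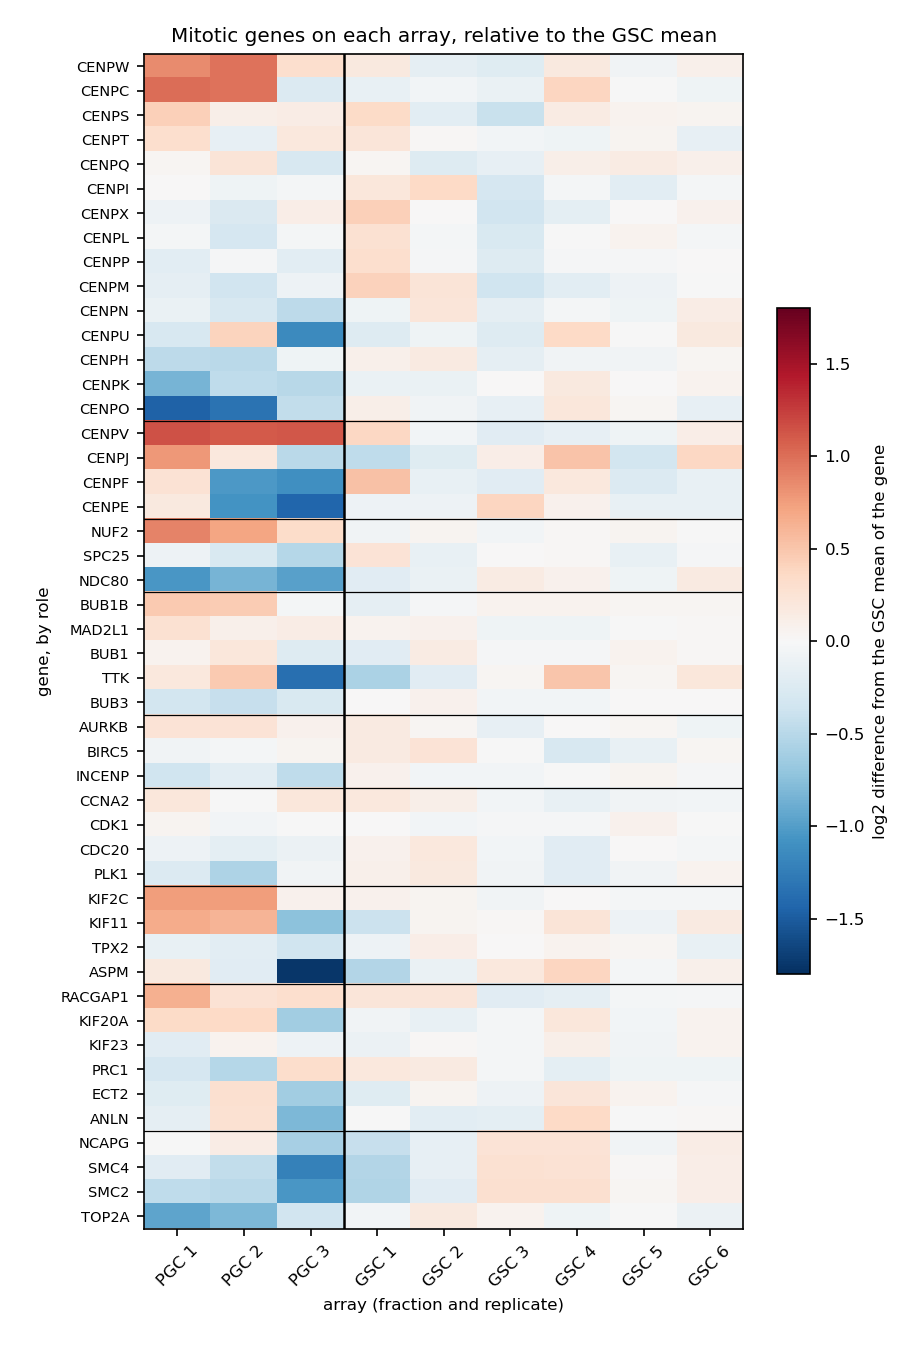
Log2 expression of the 48 genes (rows, by role) on each of the 9 arrays (columns, PGC left), each relative to the GSC mean of the gene. The column of PGC replicate 3 is low for ASPM, TTK, KIF11, SMC2 and SMC4, which are not low on the other PGC arrays to that extent, while CENPV is high and NDC80 low on all 3 PGC arrays.

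Genes that work beside these 48 were taken from 8 lists that share no member with them. Of 147 measured genes in these lists, 37 rose in PGC, 22 fell and 88 did not pass, which is 40.1% called, against 42.0% of all genes, with a median log2 difference of 0.05. Leaving out single arrays gave 19 (without PGC replicate 1) to 57 (without PGC replicate 3) that rose. Of all genes, 22.5% rose and 19.5% fell over all arrays, and 25.5% rose and 22.9% fell without PGC replicate 3. The counts of single lists below are to be read beside the shares over all arrays, and no list was tested as a set. The share of all genes without PGC replicate 1 is not given here, so the 19 cannot be set against it.

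Of 18 other kinetochore genes 4 rose and 2 fell. SKA3, of the SKA complex that follows microtubule tips with NDC80, measured 8.71, 8.62 and 8.36 in PGC, against 7.42 to 7.96 in GSC, and was 1.90-fold higher (0.93 ± 0.13 SE, limma adjusted p = 2.33e-04). NSL1, of the MIS12 complex on which NDC80 docks, fell by 0.66 (5.43, 5.53 and 5.83 in PGC, against 6.14 to 6.37 in GSC). SGO2, a protector of cohesin, was called lower but lay below the reporter level on all 9 arrays.

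Of 17 genes of the anaphase-promoting complex and mitotic exit, 6 rose and 4 fell, with a median of 0.11, and FBXO5, counted among the 6, lay below the reporter level on all 9 arrays. ANAPC13, a small subunit of the complex, measured 7.25, 6.60 and 6.46 in PGC, against 4.27 to 5.35 in GSC, and was 4.01-fold higher (2.00 ± 0.24 SE, adjusted p = 6.19e-05 by limma). ANAPC10, a substrate-binding subunit below the reporter level on 3 of 6 GSC arrays, was at least 2.09-fold higher, where arrays below the level were set at it. CDC14B, a phosphatase, fell by 0.76 on its brightest probe set, and none of its dimmer probe sets was called (-0.17 for the second). Among 14 cohesin genes 3 rose and 4 fell. HDAC8, which deacetylates the cohesin subunit SMC3, rose by 0.91 and ESCO2, which acetylates it, by 0.78, while the subunit STAG2 fell by 0.71.

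Of 30 genes of centrosome duplication and spindle assembly, 4 rose, 4 fell and 22 did not pass. CEP192, a scaffold of the mitotic centrosome, measured 8.09, 8.23 and 6.86 in PGC, against 5.91 to 6.43 in GSC, and was 2.99-fold higher (1.58 ± 0.25 SE, limma adjusted p = 5.00e-04), with all 4 of its probe sets called higher. HAUS2, of the augmin complex that branches spindle microtubules, was 2.05-fold higher, and PLK2, a polo-like kinase of centriole duplication, was 2.89-fold lower. In the list of other chromosome structure genes, 1 of 8 rose and 2 fell. SMC6, of the SMC5/6 complex, fell by 1.33 and TOP2B, the second topoisomerase II, by 1.27. NCAPH2, of condensin II, rose by 0.57, and neither of its dimmer probe sets was called. MKI67, the proliferation antigen, had 7.93, 7.36 and 6.61 in PGC, against 7.53 to 8.30 in GSC, and did not pass (-0.68, limma adjusted p = 0.0513). It was called lower without PGC replicate 1 (-0.99) or GSC replicate 1. Without PGC replicate 3, its lowest array, the difference was -0.34 and not called (adjusted p = 0.214).

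Of 18 cyclins, kinases and inhibitors, mostly of G1 and S phase but with CCNB1, CCNB3, WEE1 and WEE2 of entry into mitosis, 7 rose and 3 fell, with a median log2 difference of -0.02. Of the 7, CCNA1 lay below the reporter level on all 9 arrays. RB1, the retinoblastoma protein, measured 5.33, 5.57 and 6.29 in PGC, against 6.97 to 7.22 in GSC, and was 2.53-fold lower (-1.34 ± 0.18 SE, limma adjusted p = 1.41e-04). The G1 kinase CDK6 was 2.47-fold lower and its cyclin CCND1 1.90-fold lower, with PGC replicate 3 nearest to GSC for both. The other D-type cyclins went the other way, with CCND3 up by 0.83 and CCND2 by 0.40, as did the E-type cyclins CCNE1 (0.80) and CCNE2 (0.56), 4 genes named after their values were seen. The cell cycle inhibitors CDKN1A (-0.02) and CDKN1B (-0.26) did not pass. CDKN1B was called lower without PGC replicate 3 (-0.35) but not without PGC replicate 1 (-0.19).

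Of 19 cell cycle transcription regulators 5 rose and 2 fell. FOXM1, a transcription factor of mitotic genes, measured 6.29, 6.45 and 6.28 in PGC, against 6.86 to 7.09 in GSC, and fell by 0.60 ± 0.10 (SE, adjusted p = 4.85e-04 by limma). E2F8, an E2F repressor, rose by 0.95 and LIN52, of the MuvB core that binds mitotic and other cell cycle genes, by 0.60. Of 23 DNA replication genes 7 rose and 1 fell. The primase subunit PRIM2 rose by 1.26 (1.86 without PGC replicate 3), the clamp loader subunit RFC3 by 1.22 and the licensing factor CDT1 by 0.83. The second PRIM2 probe set had a difference of 0.76 and was not called. PCNA, the sliding clamp, had a difference of 0.03, with a 95% interval of -0.19 to 0.24. The PRIM2 and LIN52 calls were lost without PGC replicate 1 or 2 and that of NCAPH2 without PGC replicate 1.

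**Figure D5:**
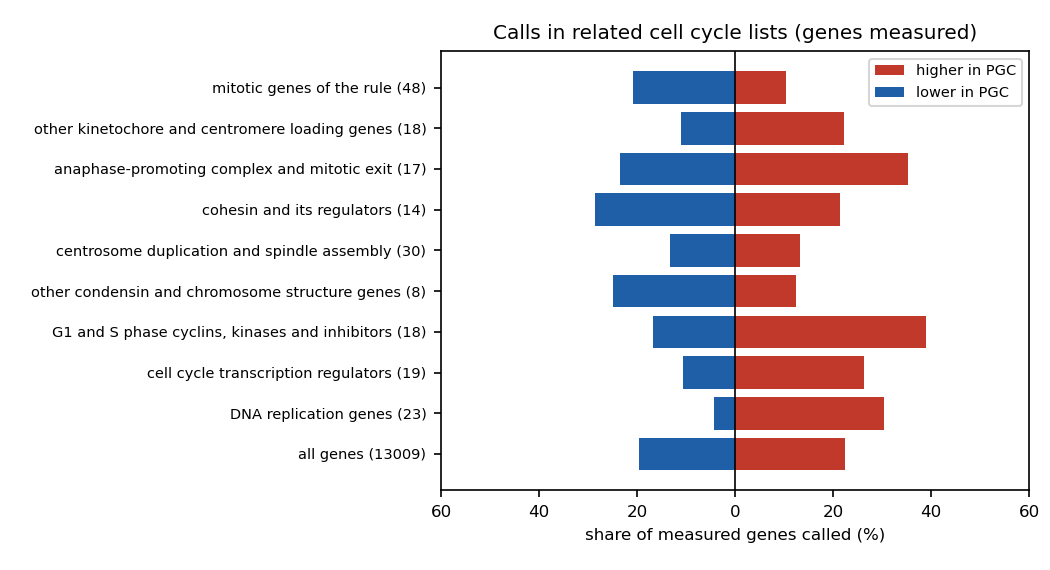
Share of measured genes (%) called higher (right) or lower (left) in PGC, for the 48 mitotic genes, 8 related lists (number of genes in parentheses) and all 13009 genes. Of all genes 22.5% rose and 19.5% fell. Of the 48 mitotic genes 5 rose (10.4%) and 10 fell (20.8%). Of the 23 replication genes 7 rose and 1 fell, and of the 18 in the G1 and S phase list 7 rose and 3 fell. No list was tested as a set.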

How the data were processed

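RNA of sorted cells was measured on 9 Affymetrix chicken arrays. The authors deposited 1 log2 value per probe set and array, and RMA is named, with no version, per the submitters' processing notes. That the scale is log2 was read from the values. RMA compresses low values, which understates differences of dim genes, and detection was judged from reporter probe sets alone. Of 38535 probe sets, 96 controls were left out of the tests. Genes were named from the platform annotation (27178 probe sets with 1 symbol, 177 with several, 11180 with none). The brightest probe set stood for its gene.

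All 13009 genes were tested with limma 3.58.1 in R 4.3.3 (lmFit and eBayes) on cell fraction over all 9 arrays, two-sided, with Benjamini-Hochberg adjustment over all genes and calls at 0.05. The fit was tested on simulated data with the same spread in both fractions, which does not cover the often wider spread of PGC here. Probe sets were also fitted together. Ratios between partners were compared by exact permutation over arrays. The 48 genes, the related lists and the tests were chosen with earlier results of these data known. Every measured member could be named. In the related lists up to 3 called genes with the largest difference were named, and CCNB1, CCNB3, MKI67, FOXM1, PCNA, CDKN1A and CDKN1B were fixed. Other genes of those lists were named after their values were seen, as said where they appear. Alternatives changed the probe set, filter, variance model, weights, scaling and arrays. List symbols were matched exactly (147 of 187).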

Additional observations from a re-analysis of the deposited data

Results flagged for a closer look

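Among the 6 GSC arrays, 2 of the 48 members had a single array far from the others by Dixon's test at the 95% level, and chance alone flags about 1 in 20 groups. For CENPC the highest array was GSC replicate 4, at 6.36, against 5.84 to 5.97 on the other GSC arrays, with a gap of 0.749 of the whole range. For BUB1B the lowest array was GSC replicate 1, at 7.97, against 8.11 to 8.19, with a gap of 0.632 of the range. The 3 PGC arrays are too few for this test.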

How the results depend on the processing

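Over the 20 alternative analyses, 6 of the 15 called members were called in every one (CENPV, CENPW, NUF2, CENPO, NDC80 and TOP2A), and 0 of the 15 changed direction. Of the 33 uncalled members, 16 changed sign in at least 1 alternative, none of them as a call. With array weights per fraction, which allow a different spread in PGC and GSC, 4 members rose and 6 fell. RACGAP1, CENPE, CENPH, SMC2 and SMC4 were then no longer called. Replicates 1 to 3 of both fractions alone gave 3 that rose and 4 that fell, and 16 and 11 genes of the related lists. The replicate numbers did not pair the arrays (correlations of same-numbered deviations of 0.190, -0.128 and -0.008), and a replicate block on the same 6 arrays gave 3 and 4 members and 18 and 10 related genes. Leaving out single arrays gave 3 to 9 members that rose, 7 to 12 that fell, a median of -0.16 to -0.02, and 19 to 57 related genes that rose and 17 to 24 that fell. Without PGC replicate 3, 25.5% of all genes rose and 22.9% fell. The shares of all genes in the other alternatives are not given here, so these counts describe the members and lists alone. Without PGC replicate 3 and GSC replicate 1, chosen after seeing the data, 10 members and 57 related genes rose. Probe sets near background limit SPC25, CENPF, SGO2, CCNA1 and FBXO5, and with dim genes left out all of these but CENPF had no value.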

Other observations

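Several members that were low on PGC replicate 3 were also low on GSC replicate 1, a pattern noticed in the data and given as a description. ASPM, TTK and KIF11 deviated by -1.74, -1.68 and -1.38 on PGC replicate 3 from the mean of the other PGC arrays, and by -0.63, -0.68 and -0.47 on GSC replicate 1 from the mean of the other GSC arrays. SMC2, SMC4 and NCAPG deviated by -0.57, -0.89 and -0.66 on PGC replicate 3 and by -0.65, -0.64 and -0.50 on GSC replicate 1. Others did not follow it, since CENPF, CENPW and KIF2C deviated by -0.72, -0.61 and -0.68 on PGC replicate 3 and by 0.63, 0.21 and 0.09 on GSC replicate 1, and ANLN and KIF20A by -0.86 and -0.97 on PGC replicate 3 and by -0.01 and -0.07 on GSC replicate 1. Across the 48 genes, which share arrays and are not independent, the deviations on PGC replicate 3 correlated with those on GSC replicates 1 to 6 at 0.62, 0.50, -0.35, -0.75, 0.11 and -0.43, and across all genes at 0.08, 0.18, 0.11, -0.36, 0.03 and -0.03.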
